A study of Caenorhabditis elegans with 12 samples.

Results

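The mRNAs described are 36 nuclear genes of mitochondrial respiration, of 20182 genes in the count table. They were chosen by symbol, as subunits of the respiratory complexes and of the ATP synthase. They comprise 8 genes of complex I, 4 of complex II, 7 of complex III, the cytochrome c gene cyc-2.1, 7 of complex IV and 9 of the ATP synthase. All 36 had a row and passed the filter on low counts. RIP-seq, in which a tagged protein is pulled down and the RNA that comes with it is sequenced, was done on whole Caenorhabditis elegans larvae at the L3/L4 stage, grown for about 30 h at 25 °C. The LIN41 strain was lin-41(n2914); him-5(e1490) with the transgene xeSi197, in which the lin-41 promoter and 3′ UTR drive flag-gfp-lin-41. The control strain was him-5(e1490) with the transgene xeSi55, in which the dpy-30 promoter drives tagged SART-3. Both strains thus carried him-5(e1490), an allele that raises the share of males, and only the LIN41 strain carried the lin-41(n2914) mutation. The 12 libraries were 3 biological replicates of each of 4 groups (LIN41 IP, LIN41 input, SART-3 IP, SART-3 input). For each condition 5 IPs were run in parallel to recover enough RNA, and each input came from an aliquot of the same lysate. Because whole worms were lysed, fewer cells of a type and less RNA per cell cannot be told apart.

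Oxidative phosphorylation passes electrons from NADH through complex I, or from succinate through complex II, to ubiquinone, then through complex III to cytochrome c and on to complex IV, which reduces oxygen. The proton gradient built on the way drives the ATP synthase. Most subunits are encoded in the nucleus, translated in the cytosol and imported, so that their mRNAs can meet cytosolic RNA-binding proteins such as LIN41, a TRIM-NHL protein and target of the let-7 microRNA. In C. elegans the pathway is known for the long-lived mutants isp-1 and nuo-6 and for the short-lived, oxygen-sensitive mutants mev-1 and gas-1.

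Library totals were 291466, 389151 and 404046 counts in the LIN41 IP, against 2024430, 859814 and 993849 counts in its input. They were 412440, 612445 and 456053 counts in the SART-3 IP, against 1274703, 1354051 and 1401265 counts in its input. The IP libraries were thus shallower than every input library. Per the labels, all IPs were sequenced in a lane of the flow cell and all inputs in another, so that lane and IP over input cannot be told apart. Replicate 1 stood apart from replicates 2 and 3 within each group. The chi-square per degree of freedom of the counts was 3.61 to 15.1 for pairs with replicate 1 and 1.62 to 2.22 between replicates 2 and 3. Markers of body wall muscle, intestine, epidermis, germline, oocyte and neurons were all detected, and of the 7 sperm markers with a row 1 was at 0 in every library. The summed level of the sperm markers was 224, 258 and 520 CPM (counts scaled to a common library size) in the LIN41 IP and 161, 257 and 463 CPM in the LIN41 input. It was 90.2, 168 and 388 CPM in the SART-3 IP, against 56.2, 139 and 295 CPM in its input, lowest in replicate 1 of each group, and its part in the results was not tested. Members lie on chromosomes I (11 genes), II (3), III (9), IV (4), V (3) and X (6) in the WBcel235 annotation.

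The first comparison asked how much of each mRNA the anti-FLAG beads brought down relative to the lysate. In the LIN41 strain 22 of the 36 members were higher in the IP than in the input and none was lower, at a Benjamini-Hochberg adjusted p under 0.05 in edgeR's quasi-likelihood test. Over all 12036 genes tested, 8.87% were called higher and 5.33% lower. The fitted log2 IP over input of the members had a median of 1.04, and ran between 0.05 for ucr-2.3 and 1.85 for cyc-2.1, against a median of −0.07 over all genes tested. That median of the members was 0.67 without LIN41 input 1 and 0.56 without replicate 1, with 21 members called each time (7.49 and 9.2% of all genes). The libraries of the SART-3 strain are separate from those of the LIN41 strain, but all 12 shared 1 fit and 1 estimate of the spread. Without LIN41 input 1, 33 members were called with SART-3 (17.7% of all genes). With all libraries, 28 of 36 members were higher and none lower in the SART-3 strain. Over all genes 10.5% were higher and 7.79% lower in that strain. There the median of the members was 1.01 (0.14 to 1.69), and that of all genes was −0.03. All 22 members called in the LIN41 IP were also called in the SART-3 IP, where they made up 78.6% of the calls. The members called only with SART-3 were lpd-5, nuo-4, nuo-6, sdhb-1, sdhd-1 and ucr-2.1. The 3 IP libraries lay above the 3 inputs without overlap for 29 members in the LIN41 strain (11.8% of all genes) and for 33 members in the SART-3 strain (18.6% of all genes). These calls turn on the replicates: without replicate 3 they dropped to 3 members (1.23% of all genes) in the LIN41 strain and to 0 members in the SART-3 strain, where edgeR called 0.241% of all genes higher. The medians without replicate 3 were 1.2 and 0.97, and the lowest adjusted p of a member with SART-3 was 0.132, with 18 members at an unadjusted p under 0.05. DESeq2 and limma-voom were run on all replicates only. Leaving out SART-3 IP 1, SART-3 IP 3, SART-3 input 1, SART-3 input 2, SART-3 input 3 or the whole of replicate 2 left 11, 14, 18, 15, 11 and 17 members called in the SART-3 strain. In the same fits 3.59, 3.6, 7.83, 5.1, 3.33 and 6.59% of all genes were called higher there. With a block per lysate, which ties each IP to its own input, 17 members were called with LIN41 (8.58% of all genes). There asb-2, atp-1, atp-2, nuo-2 and ucr-1 lost their calls (adjusted p of 0.0614 to 0.0876). With SART-3 24 were called (11.3% of all genes), where atp-1, atp-2, nuo-4 and ucr-2.1 lost theirs (adjusted p of 0.0602 to 0.0841).

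**Figure D1:**
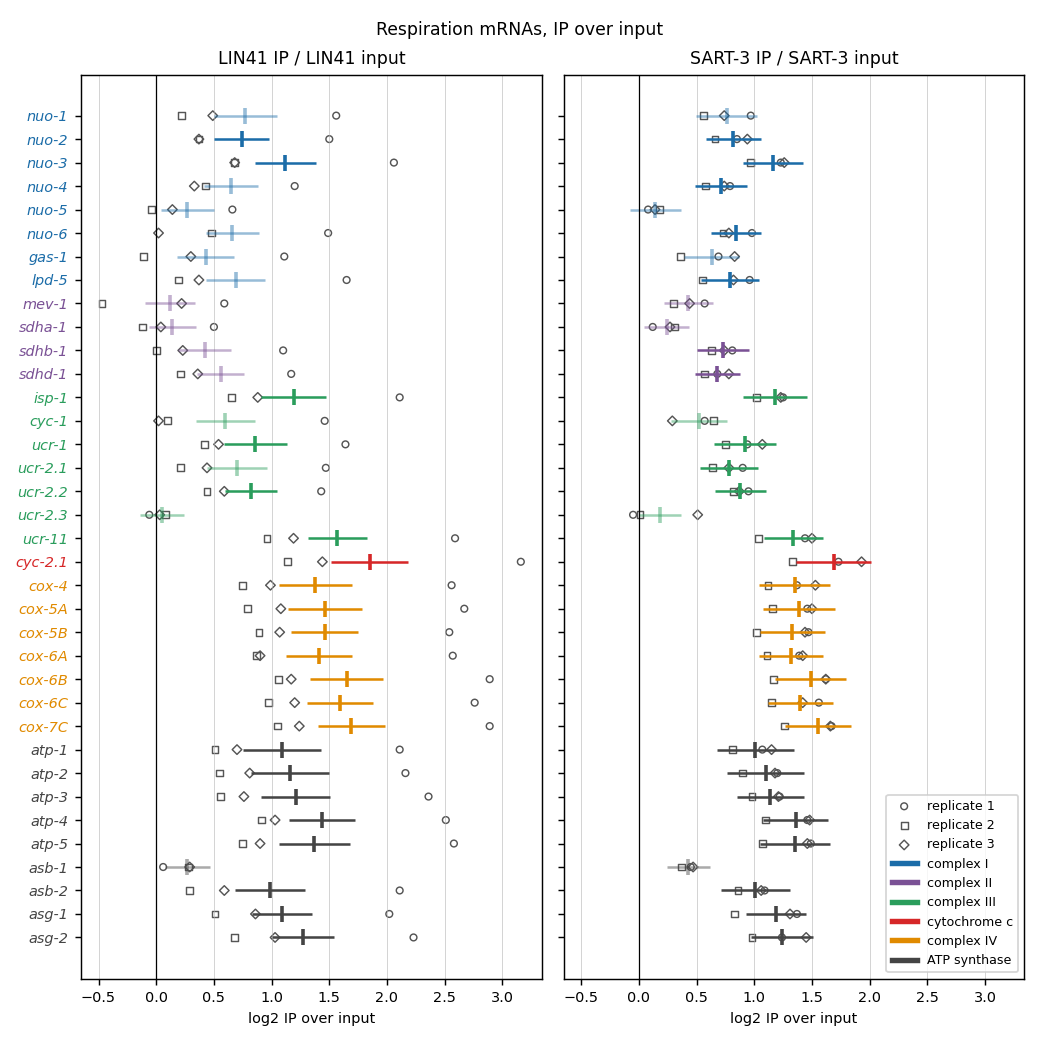
Log2 IP over input of the 36 members (horizontal axis) in the LIN41 strain (left) and the SART-3 strain (right), with genes listed by complex. Open symbols are single replicates, vertical ticks with bars are the fitted value ± SE, and pale ticks mark genes with an adjusted p of 0.05 or more. Replicate 1 of the LIN41 strain lies to the right of replicates 2 and 3 for 34 of the 36 genes, and complex II lies nearer to 0 than complex IV in both strains.

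Cytochrome c, the small soluble carrier between complexes III and IV, is encoded by cyc-2.1 (WBGene00017121, chromosome IV), which had the highest value in both IPs. Its normalized level was 1070, 672 and 692 CPM in the LIN41 IP, against 118, 305 and 254 CPM in the LIN41 input. For the control protein it was 673, 463 and 650 CPM in the SART-3 IP, against 202, 182 and 169 CPM in the SART-3 input. The IP and input libraries did not overlap in either strain, and the fitted log2 IP over input was 1.85 ± 0.331 (SE, adjusted p = 0.00182) with LIN41 and 1.69 ± 0.324 (adjusted p = 0.00291) with SART-3. The raw counts behind these levels hardly moved: 234, 245 and 249 counts in the LIN41 IP, against 273, 273 and 263 counts in its input, and 239, 275 and 268 counts in the SART-3 IP, against 273, 279 and 272 counts in its input. Over the 336 bp of the gene model that is 0.696 to 0.83 counts per bp in every library, from the shallowest to the deepest.

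Complex IV, cytochrome c oxidase, was the complex most uniformly above its input: 7 of 7 nuclear subunits were called in each strain, with log2 values of 1.38 to 1.69 with LIN41 and 1.32 to 1.55 with SART-3. These genes are short, with 255 bp (cox-7C) to 528 bp (cox-4) in the count table. For cox-5A (525 bp) the level was 1110, 710 and 761 CPM in the LIN41 IP, against 172, 409 and 360 CPM in the LIN41 input. It was 775, 581 and 699 CPM in the SART-3 IP, against 281, 258 and 245 CPM in the SART-3 input. The groups were separate in each strain, with log2 values of 1.46 ± 0.320 (adjusted p = 0.00597) and 1.39 ± 0.314 (adjusted p = 0.0062). The highest member of the complex was cox-7C, at 613, 409 and 408 CPM in the LIN41 IP and 80.7, 196 and 172 CPM in the LIN41 input, with a log2 value of 1.69 ± 0.292 (adjusted p = 0.00143). With SART-3 its level was 425, 300 and 400 CPM in the IP and 132, 123 and 125 CPM in the input (log2 1.55 ± 0.286, adjusted p = 0.00236). In each strain the values of the 7 subunits overlapped within their SEs. These SEs do not compare genes within the same lysate, and differences between the subunits were not tested.

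The ATP synthase was called for 8 of its 9 genes in each strain, with medians of 1.16 and 1.14. The catalytic α and β subunits are encoded by atp-1 and atp-2, the longest of the called members at 1617 bp each. For atp-2 the level was 2280, 1040 and 1160 CPM in the LIN41 IP, against 508, 713 and 661 CPM in the LIN41 input (log2 1.16 ± 0.339, adjusted p = 0.0283). In the SART-3 strain it was 1720, 1120 and 1320 CPM in the IP, against 746, 601 and 579 CPM in the input (log2 1.1 ± 0.333, adjusted p = 0.0283). The stalk and membrane subunits atp-3, atp-4, atp-5, asg-1 and asg-2 had log2 values of 1.09 to 1.44 with LIN41 and 1.14 to 1.36 with SART-3, all called.

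Subunit b of the peripheral stalk is encoded by a pair of genes, asb-2 and asb-1, of which asb-1 is known as the germline form. For asb-2 the level was 1020, 521 and 547 CPM in the LIN41 IP and 234, 425 and 363 CPM in the LIN41 input, and its log2 value of 0.99 ± 0.303 was called (adjusted p = 0.035). With SART-3 it was 733, 591 and 648 CPM in the IP and 344, 325 and 310 CPM in the input (log2 1.01 ± 0.296, adjusted p = 0.0245). For asb-1, a gene of nearly the same length (906 bp against 918 bp), the level was 101, 192 and 217 CPM in the LIN41 IP and 96.3, 157 and 177 CPM in the LIN41 input. With SART-3 asb-1 stood at 152, 162 and 211 CPM in the IP and 111, 124 and 152 CPM in the input. The LIN41 libraries of asb-1 overlapped, and its log2 values of 0.27 ± 0.196 (adjusted p = 0.375) and 0.43 ± 0.187 (adjusted p = 0.115) were not called in either strain. Replicate 1 of the LIN41 strain, which gave 2.11 for asb-2, gave 0.06 for asb-1, which had 22 counts in that IP library. The genes differ in count density, with 0.201 (asb-1) and 0.472 (asb-2) counts per bp in the LIN41 input. In the SART-3 input it was 0.215 and 0.53. With offsets fitted to counts per bp (described below), asb-1 was at 0 and 0.03 and asb-2 at −0.06 and −0.02 with LIN41 and SART-3, none called. The difference between the genes was not tested.

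Complex III, the cytochrome bc1 complex, was called for 4 of 7 genes with LIN41 and 5 of 7 with SART-3. Its small subunit gene ucr-11, at 171 bp the shortest member, had 279, 219 and 233 CPM in the LIN41 IP and 44.5, 112 and 101 CPM in the LIN41 input. Its log2 value was 1.57 ± 0.258 (adjusted p = 0.00107), and with SART-3 it was 1.34 ± 0.252 (adjusted p = 0.00255). The Rieske iron-sulfur protein isp-1 was at 882, 568 and 586 CPM in the LIN41 IP and 203, 361 and 318 CPM in the LIN41 input, with a log2 value of 1.19 ± 0.281 (adjusted p = 0.00942), and with SART-3 it was 1.18 ± 0.276 (adjusted p = 0.00744). Cytochrome c1, cyc-1, showed 521, 178 and 164 CPM in the LIN41 IP and 189, 166 and 161 CPM in the LIN41 input, so that only replicate 1 lay clear of its input. It was not called with LIN41 (log2 0.60, adjusted p = 0.126) or with SART-3 (log2 0.52, adjusted p = 0.142).

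The core protein genes ucr-2.1, ucr-2.2 and ucr-2.3 are paralogues of 1275, 1269 and 1284 bp, and the differences between them were not tested. In the LIN41 input they had 0.323, 0.242 and 0.0909 counts per bp. The levels of ucr-2.2 were 526, 329 and 370 CPM in the LIN41 IP and 194, 242 and 245 CPM in the LIN41 input (log2 0.82 ± 0.228, adjusted p = 0.0226), and with SART-3 the value was 0.88 ± 0.222 (adjusted p = 0.0111). For ucr-2.1 the log2 value was 0.70 with LIN41, which was not called (adjusted p = 0.0757), and 0.78 with SART-3, which was called (adjusted p = 0.0393). For ucr-2.3, the member of lowest level per length, it was 42.7, 85.4 and 95.2 CPM per kb in the LIN41 IP, against 44.7, 80.8 and 93.2 CPM per kb in its input. With SART-3 it was 46.1, 72.1 and 108 CPM per kb in the IP, against 47.8, 71.7 and 75.2 CPM per kb in the input. The IP and input libraries of ucr-2.3 overlapped in both strains and the log2 values were 0.05 ± 0.193 and 0.18 ± 0.181, neither called. How reads that match more than 1 paralogue were counted is not given in the sources used here.

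**Figure D2:**
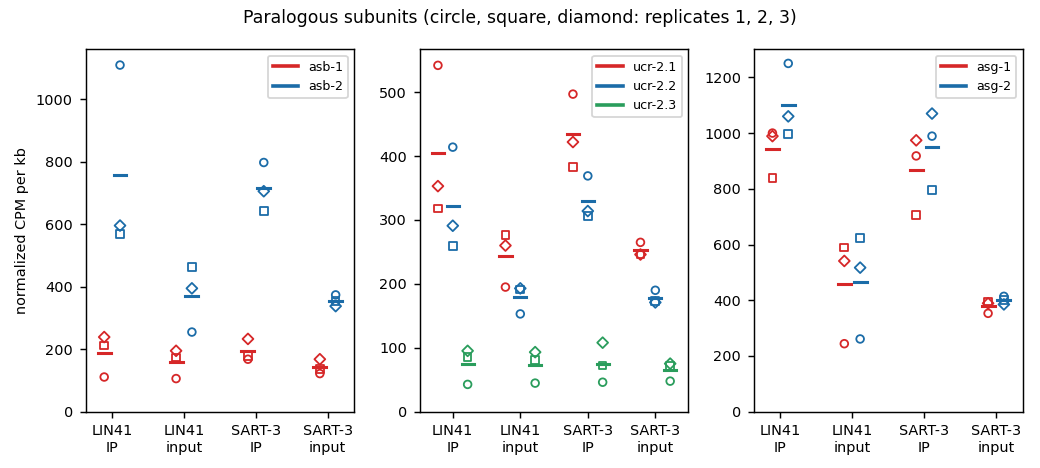
Normalized CPM per kb of gene length (vertical axis, from 0) of 3 sets of paralogous subunits in the 4 groups, with open symbols for single libraries and bars for the mean of 3. The IP libraries of asb-2, ucr-2.1, ucr-2.2, asg-1 and asg-2 lie above their inputs, whereas those of asb-1 in the LIN41 strain and of ucr-2.3 in both strains overlap them.

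Complex I, which takes electrons from NADH, was called for 2 of 8 genes with LIN41 (median 0.68) and 5 of 8 with SART-3 (median 0.77). The highest was the accessory subunit gene nuo-3, with 640, 458 and 428 CPM in the LIN41 IP, against 152, 286 and 265 CPM in the LIN41 input (log2 1.12 ± 0.266, adjusted p = 0.00942). In the SART-3 strain nuo-3 had 510, 421 and 476 CPM in the IP, against 217, 214 and 198 CPM in the input (log2 1.16 ± 0.261, adjusted p = 0.00587). In WBcel235 its coding exons share 396 bp with a second protein-coding gene of equal orientation, so its reads cannot be assigned to it alone, and no other member had such an overlap. The other complex I gene called with LIN41 was nuo-2 (log2 0.74 ± 0.241, adjusted p = 0.0456). The core subunit nuo-5 stood at 526, 288 and 320 CPM in the LIN41 IP and 331, 297 and 290 CPM in the LIN41 input, which overlap, with log2 values of 0.27 ± 0.227 and 0.14 ± 0.221 in the LIN41 and SART-3 strains, neither called. For gas-1, a core subunit, the values were 0.43 and 0.63, and for nuo-6, an accessory subunit, 0.66 and 0.84, of which only the 0.84 with SART-3 was called (adjusted p = 0.0134).

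Complex II, succinate dehydrogenase, was the lowest complex, with 0 of 4 genes called with LIN41 and 2 of 4 with SART-3, and medians of 0.28 and 0.56. At an unadjusted p under 0.05 the LIN41 comparison held only sdhd-1, a membrane anchor (log2 0.56 ± 0.205, adjusted p = 0.0717). DESeq2 and limma-voom called none of the 4, and edgeR's likelihood ratio test called sdhd-1. The other anchor, the cytochrome b subunit mev-1, stood at 146, 140 and 253 CPM in the LIN41 IP and 96.3, 194 and 217 CPM in the LIN41 input, and the libraries overlapped. In replicate 2 it lay below its input (log2 −0.47), and the fitted value was 0.12 ± 0.219 (adjusted p = 0.757). With SART-3, mev-1 had 169, 190 and 218 CPM in the IP and 113, 154 and 161 CPM in the input, without overlap, and its 0.43 ± 0.209 was not called (adjusted p = 0.153). The flavoprotein gene sdha-1 (1941 bp) had log2 values of 0.14 ± 0.201 and 0.24 ± 0.193, neither called. The iron-sulfur subunit sdhb-1 was at 0.42 with LIN41, not called (adjusted p = 0.228), and at 0.73 with SART-3 (adjusted p = 0.0291).

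The study's own question is the difference between the IPs, that is, the log2 IP over input with LIN41 less that with SART-3. For the members it had a median of 0.01 and ran between −0.32 for mev-1 (± 0.303, SE) and 0.22 for ucr-11 (± 0.358). In edgeR's test 0 of 36 members were called in either direction, every adjusted p was 1, and 0 members had an unadjusted p under 0.05. Over all genes 0.0415% were called higher and 0% lower. DESeq2 and limma-voom also called 0 members. The SEs of these differences were 0.263 to 0.469. The replicates did not share a direction. The median over the members was 0.85 in replicate 1, −0.32 in replicate 2 and −0.44 in replicate 3, and only asb-1 had the same sign in all 3 (−0.39, −0.09 and −0.18). Without replicate 1, all 36 members were negative (−0.57 to −0.11, median −0.38, against −0.08 over all genes), and none was called, with a lowest adjusted p of 0.378 and 13 members at an unadjusted p under 0.05.

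The inputs compare the strains before the IP, at unequal library depths. LIN41 input less SART-3 input had a median of 0.11 over the members (−0.26 for cyc-1 to 0.30 for cox-4), and 0 of 36 were called in either direction, against 1.32% higher and 0.0914% lower over all genes. No member's libraries were separate between the inputs (1.83% of all genes were separate and higher, 2.38% separate and lower). The lowest adjusted p was 0.957, 0 members had an unadjusted p under 0.05, and DESeq2 and limma-voom also called 0. The difference again changed sign with the replicate, with a median of −0.52 in replicate 1 and 0.36 and 0.34 in replicates 2 and 3. Without replicate 1, 17 members were called higher in the LIN41 input (15.4% of all genes), with cyc-2.1 at 0.66, cox-4 at 0.65 and cox-6B at 0.61. Without LIN41 input 1 alone, 14 were called (9.15% of all genes). LIN41 input 1 was the deepest library, with 2024430 counts, and the inputs of replicates 2 and 3 were shallower in the LIN41 strain than in the SART-3 strain. Over the members, Spearman's rho of the difference between the inputs was −0.79 with gene length and 0.76 with input counts per bp. Over all genes it was −0.28 and 0.12. Of genes with 0.6 to 1 input counts per bp, the 11 members had a median difference of 0.21 and the 163 others 0.27. The part of depth and count density in the difference between the inputs was not tested.

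Members varied with the length of the gene and with the density of its counts. The authors kept a single read for each 5′ end position, so a gene of a given length has only so many positions at which a count can arise. Gene length is here the width given in the count table, which equals the coding length in WBcel235 for 32 of the 36 members (not for nuo-2, nuo-3, nuo-5 and ucr-1). It was 654 bp in the median (171 to 2485 bp), against 1008 bp over all genes in the file. More than 0.5 counts per bp were reached by 3, 4 and 5 members in the LIN41 IP, against 20, 13 and 13 in its input. The figures were 5, 11 and 7 members in the SART-3 IP, against 16, 20 and 20 in its input. Over the 36 members Spearman's rho of log2 IP over input with length was −0.68 in the LIN41 strain and −0.72 in the SART-3 strain, and with input counts per bp it was 0.91 and 0.93. Over all 12036 genes the corresponding rho values were −0.45 and −0.50 for length and 0.42 and 0.47 for counts per bp. These are correlations across genes that share the same libraries, and input counts enter both of the quantities.

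**Figure D3:**
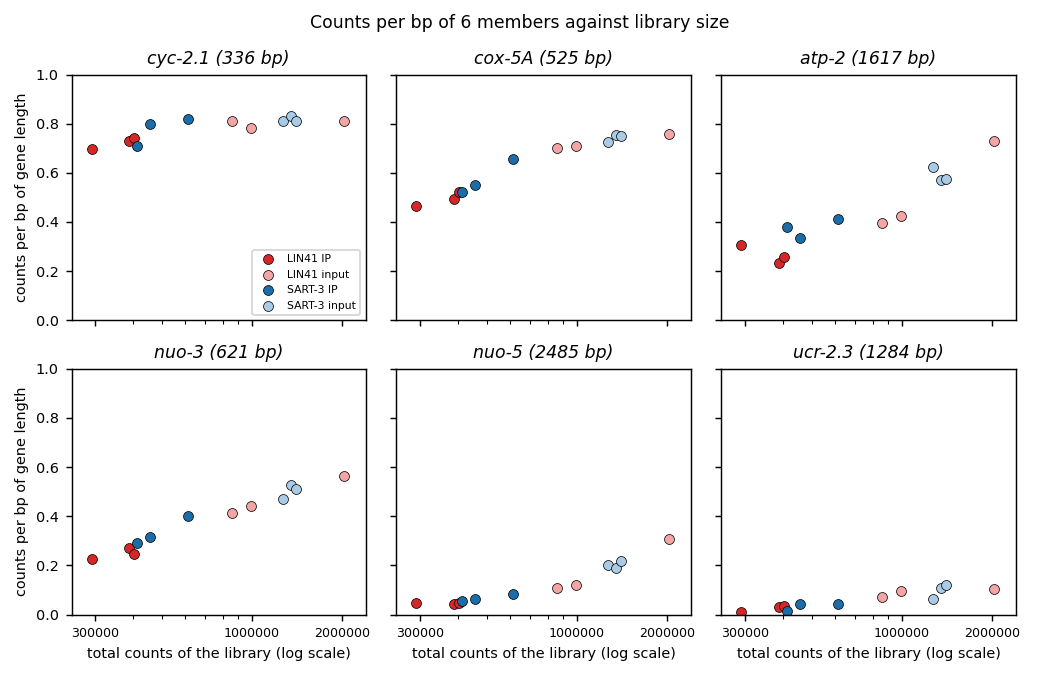
Counts per bp of gene length (vertical axis, 0 to 1) against the total counts of each of the 12 libraries (log axis) for 6 members. The points of cyc-2.1 stay between 0.696 and 0.83 in all libraries, those of cox-5A lie between 0.463 and 0.76, and those of nuo-5 and ucr-2.3 are under 0.1 in every IP library.

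Other genes of high count density were also above their input. Of genes with 0.6 to 1 input counts per bp, the 11 members had a median log2 of 1.46 with LIN41 and the 163 other genes one of 1.73, and 97.5% of the others were called higher. Between 0.5 and 0.6 counts per bp the 6 members had a median of 1.13 and the 117 others 1.06. Between 0.4 and 0.5 the medians were 0.91 for the 4 members and 0.88 for the 192 others. Between 0.3 and 0.4 the medians were 0.66 for the 7 members and 0.58 for the 362 others. Between 0.2 and 0.3 the 5 members had a median of 0.65, above the upper quartile of the 746 others (median 0.34, quartiles 0.12 and 0.57). These members ran from 0.27 (asb-1), below the median of the others, to 0.82 (ucr-2.2). They include nuo-2, whose 1338 bp in the count table stand against 807 coding bp in WBcel235, so that its class depends on the gene model. Between 0.1 and 0.2 the medians were 0.20 for the 2 members and 0.07 for the 2217 others. The medians with SART-3 in the same 6 classes, from the densest down, were 1.36, 1.12, 0.98, 0.76, 0.71 and 0.19 for the members and 1.59, 1.03, 0.90, 0.63, 0.44 and 0.15 for the others. There too the members between 0.2 and 0.3 counts per bp had a median above the upper quartile of the others (0.63). Their range was 0.43 to 0.88. By length, 13 of the 17 members of up to 600 bp and 9 of the 19 longer ones were called with LIN41, with medians of 1.41 and 0.74. With SART-3 it was 16 of 17 and 12 of 19, with medians of 1.34 and 0.78.

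**Figure D4:**
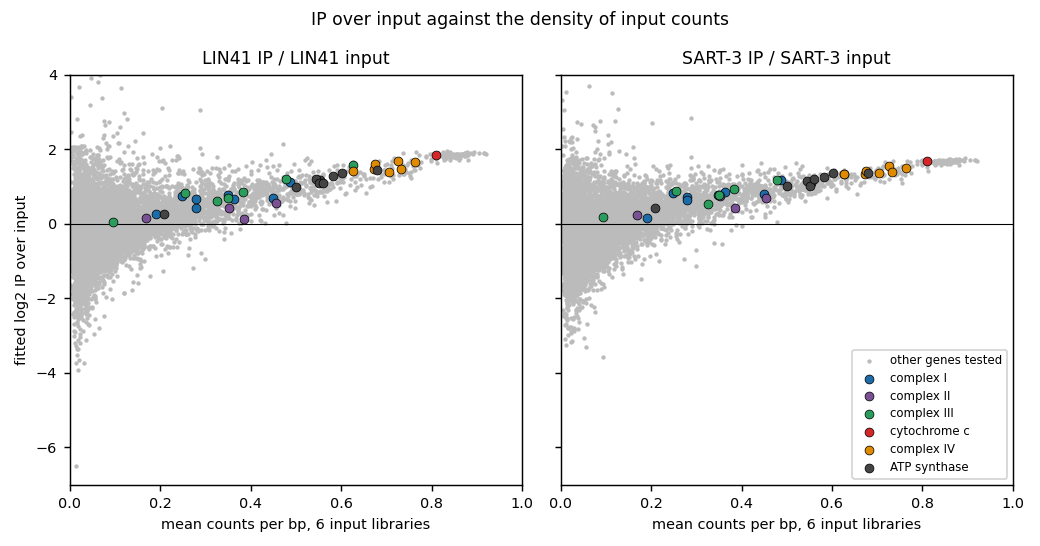
Fitted log2 IP over input (vertical axis) against the mean counts per bp of the 6 input libraries (horizontal axis) for the LIN41 strain (left) and the SART-3 strain (right). The members are coloured by complex and the other genes tested are grey, and the members run from ucr-2.3 at 0.05 and 0.18 to cyc-2.1 at 1.85 and 1.69.

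As a percentage of its input, the total of the IP library was 14.4, 45.3 and 40.7% in the LIN41 strain and 32.4, 45.2 and 32.5% in the SART-3 strain. The median log2 IP over input of the members in the same lysates was 2.04, 0.49 and 0.64 with LIN41 and 1.08, 0.82 and 1.11 with SART-3. Library totals enter both of these quantities. Members kept more counts than the library as a whole: the median member had 39.3, 57.4 and 54.2% of its input count in the LIN41 IP and 55.4, 69 and 55.6% in the SART-3 IP. For cyc-2.1 the share was 85.7 to 98.6% in all lysates.

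With offsets fitted to counts per bp, which by construction set the typical gene of each density to 0, the median of the members was 0.04 with LIN41 and 0.05 with SART-3. Only ucr-2.2 was then called higher, at 0.32 (adjusted p = 0.0386) with LIN41 and 0.33 (adjusted p = 0.0215) with SART-3. Only mev-1 was called lower, with LIN41 (−0.56, adjusted p = 0.0247). Over all genes, 5.26% were then called higher and 3.03% lower with LIN41, and 4.42% and 4.56% with SART-3. Such offsets would also take away any real enrichment that goes with count density. Counts were also corrected only for positions hit more than once, as if all positions of a gene were equally likely. With this correction 18 members stayed called with LIN41 (median 0.84) and 24 with SART-3 (median 0.83). Over all genes 7.76 and 9.14% were then called higher. That correction added 20.2 to 23% to the members' counts in the LIN41 IP and 34 to 48.5% in the LIN41 input. With offsets fitted to length alone, 25 and 28 members were called (9.87 and 11.6% of all genes), with medians of 0.95 and 0.85. How far unequal use of positions adds to the ceiling was not tested.

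**Figure D5:**
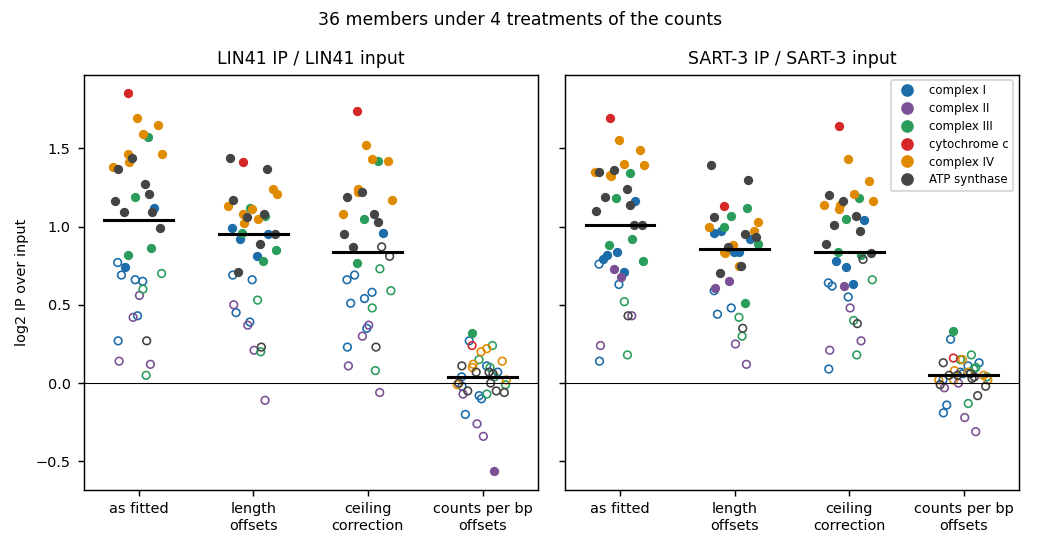
Log2 IP over input (vertical axis) of the 36 members in the LIN41 strain (left) and the SART-3 strain (right) as fitted, with length offsets, with the ceiling correction and with counts per bp offsets. Filled points are called at an adjusted p under 0.05, bars are medians, and the median with LIN41 is 1.04 as fitted and 0.04 with counts per bp offsets.

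Per kb of gene length, the members spread more widely in the IPs than in the inputs. The ratio of the highest level, always cyc-2.1, to the lowest, always ucr-2.3, was 74.5, 23.4 and 21.6 in the LIN41 IP, against 7.85, 11.2 and 8.1 in its input. It was 43.4, 19.1 and 18 in the SART-3 IP, against 12.6, 7.56 and 6.7 in its input. The 74.5 rests on 12 counts of ucr-2.3 in LIN41 IP 1, and cyc-2.1 was at 0.696 to 0.83 counts per bp in every library. The part of the count ceiling and of library depth in this spread was not tested. The order was led in every group by cyc-2.1 (2410 CPM per kb in the LIN41 IP, 671 in the LIN41 input, 1770 in the SART-3 IP, 549 in the SART-3 input) with complex IV genes behind it, and closed in every group by nuo-5, sdha-1 and ucr-2.3. The replicate ranges of neighbours in that order overlapped in 34 of 35 neighbouring pairs in each LIN41 group, 30 pairs in the SART-3 IP and 31 pairs in its input. Such ranges do not compare genes within a library: cyc-2.1 overlapped the next gene in every group although it was highest in every library. Differences between neighbours were not tested. The step without overlap in all 4 groups was the last, between sdha-1 and ucr-2.3.

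Genes that serve respiration without being members differed by class. Over all genes tested, 8.87% were called higher with LIN41 and 10.5% with SART-3. Of 12 further complex I subunits tested, 10 were called higher in each strain (medians 0.95 and 0.99), and the genes of lowest p with LIN41 were ndua-5 (1.13 and 0.98) and nduf-7 (1.09 and 1.1). Of 18 assembly factors, which help build the complexes, 3 were called in each strain (medians 0.32 and 0.40), with bcs-1 at 0.73 and 0.56 and coa-4 at 0.80 and 0.68. Of 22 genes of the citric acid cycle and pyruvate dehydrogenase, 5 were called with LIN41 and 4 with SART-3 (medians 0.42 and 0.44), and dlat-2 was at 0.94 and 0.92. The second gene of that list by p, idha-1, was at 0.76 with LIN41 and, not called, at 0.50 with SART-3. These classes follow the same order as their density, with median input counts per bp of 0.438, 0.149 and 0.287.

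Quinone synthesis and carrier genes were called for 4 of 15 with LIN41 and 5 of 15 with SART-3 (8.87 and 10.5% of all genes). Their medians were 0.21 and 0.26, with ranges of −0.98 to 1.62 and −0.19 to 1.6. The genes of lowest p with LIN41 were the methyltransferase coq-3 (1.39 and 1.27) and the ATP synthase inhibitor mai-1 (1.62 and 1.6). Mitochondrial import and chaperone genes were called for 9 of 21 in each strain (medians 0.47 and 0.57). Those of lowest p were the small import chaperones tin-9.1 (1.3 and 1.28) and ddp-1 (1.25 and 1.27). Mitochondrial ribosomal proteins were called for 12 of 68 and 23 of 68 (medians 0.35 and 0.45). Lowest in p were mrps-17 at 0.92 and 0.76 and mrpl-36 at 1.14 and 1.27. Median input counts per bp were 0.131 for the quinone and carrier genes, 0.302 for import and chaperones and 0.218 for the mitochondrial ribosome. Cytosolic ribosomal proteins, with a median of 0.842 input counts per bp, were called for 78 of 79 in each strain (medians 1.85 and 1.67), with rpl-37 at 1.87 and 1.63 and rps-29 at 1.90 and 1.68. No gene of any of these lists was called in the difference between the IPs.

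Of the paralogues of members, sdha-2 was near 0 (0.03 and −0.03) and nduf-2.2 at 0.22 and 0.30, none called. The second cytochrome c gene, cyc-2.2 (372 bp), had 9, 35 and 66 counts in the LIN41 IP, against 64, 57 and 118 counts in its input, and 11, 27 and 46 counts in the SART-3 IP, against 18, 48 and 101 counts in its input. Its log2 IP over input was 0.64 (adjusted p = 0.0384) with LIN41 and 0.79 (adjusted p = 0.0163) with SART-3, below that of cyc-2.1 in both strains. It was called higher in the LIN41 input than in the SART-3 input (log2 0.95 ± 0.182, adjusted p = 0.0164), as no member was. The sperm markers stood higher in the same direction between the inputs, with 2 of 5 tested called and a median of 0.92, and their part in the value of cyc-2.2 was not tested.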

How the data were processed

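RIP-seq libraries of 4 groups with 3 replicates each were analysed. The authors collapsed reads with identical 5′ ends, aligned them with QuasR, used SAMtools, and counted reads overlapping annotated WormBase exons; the deposited values are raw counts per gene, with a column of gene lengths (another unit, in bp). The sources name 2 different genome builds (ce10 in the submitters' processing notes and an older build in the methods), and the strand setting of the counting is not given in the sources used here. The libraries were made with a stranded kit and read as 50 bp single ends. Authors' comparisons were not used.

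Of 20182 genes, 18778 (93.0%) were matched to a symbol in WBcel235, which served for names, chromosomes and overlaps. The main test was the quasi-likelihood test of edgeR 4.0.16 (R 4.3.3) on all 12 libraries, with TMM factors, filterByExpr (12036 genes kept) and the terms replicate, library type, protein and their interaction, two-sided, Benjamini-Hochberg adjusted over all genes. SEs come from the test itself (log2 value over the root of F). Each replicate's value is its IP less its input in log2 CPM, where 2 counts were added as a prior. Alternatives included the likelihood ratio test, which the study used, DESeq2 1.42.0 and limma-voom (limma 3.58.1). Library totals ranged between 291466 and 2024430 counts, and 1 count was worth 0.4318 to 4.573 CPM.

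To see whether replicate numbers pair the libraries, 8438 genes were used: deviations from group means correlated above 0.1 in 12 of 12 pairs of libraries compared directly (lowest 0.25) and in 17 of 18 pairs in all (lowest −0.02), and the replicate term was kept. Members and lists were chosen with earlier results of these data known. All members could be named, of other genes only paralogues and, of each other list, the 2 genes of lowest p in LIN41 IP over input. None of the 12 protein genes of the mitochondrial genome was matched by symbol to a row of counts, so they were not analysed here. No sequences are given.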

Additional observations from a re-analysis of the deposited data

How the results depend on the processing

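Counts per bp offsets and the ceiling correction for length plus 49 bp were added after the data were seen. For LIN41 IP over input, counts per bp offsets left 1 member higher (5.26% of all genes) and 1 lower (3.03%), with a median of 0.04 and 14 members negative. These were mev-1 (−0.56, called lower) and, of the members called as fitted, cox-4 (−0.01), atp-1 (−0.05), asb-2 (−0.06) and asg-1 (−0.05), besides 9 others. For SART-3 IP over input these offsets left 1 member higher (4.42% of all genes), with a median of 0.05 and 9 members negative. Of the negative members, lpd-5 (−0.14), sdhd-1 (−0.22), atp-1 (−0.08), atp-2 (−0.01) and asb-2 (−0.02) had been called as fitted. The SART-3 median was 0.71 with total counts only, 0.78 with at least 10 counts in every library, 0.83 with the ceiling correction and 0.84 with 49 bp added to the length. In the same settings the LIN41 median was 0.71, 0.82, 0.84 and 0.86. Total counts only moved the median of all genes to −0.41 (LIN41) and −0.32 (SART-3). Leaving out replicates or libraries gave 3 to 27 members higher with LIN41 (median 0.56 to 1.37, with 1.23 to 10.5% of all genes higher). With SART-3 it gave 0 to 33 members (median 0.97 to 1.1, 0.241 to 17.7% of all genes). For the difference between the IPs the median of the members was −0.38 to 0.24, with 0 members called. Between the inputs 0 to 17 members were higher (median −0.12 to 0.39, 0.0249 to 15.4% of all genes). Without the replicate block 18 members were called with LIN41 and 19 with SART-3 (4.13 and 4.33% of all genes). With a block per lysate it was 17 and 24 (8.58 and 11.3%), and neither setting called a member in the difference between the IPs. Between the inputs no call was made without the block, and the lysate block could not be fitted there. The likelihood ratio test called 28 and 30 members (10.9 and 13.1% of all genes). DESeq2 called 25 and 30 (8.49 and 9.33%), and limma-voom 22 and 29 (9.59 and 11.4%). The fitted values of single members in the difference between the IPs and between the inputs changed sign, with neither value called, in 159 of 1080 and 153 of 1044 pairs of a gene and a setting, against 27 of 1080 for LIN41 and 10 of 1080 for SART-3 IP over input. No outlier test was made with 3 libraries a group.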
